A study of Bos taurus with 33 samples.

Results

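The vacuolar proton pump, or V-ATPase, was followed through 10 genes that encode subunits of the pump or a protein that assembles with it. These were ATP6V0B, ATP6V0C, ATP6V0D1, ATP6V0E1, ATP6V1A, ATP6V1B2, ATP6V1D, ATP6V1E1, ATP6V1H and ATP6AP1, and all 10 were found by symbol in both deposited tables, among 16279 genes listed for oocytes and 16244 listed for cumulus cells (CC). The set was chosen by the abundance of ATP6V0D1 and ATP6V1D, which had differed between oocytes of different follicle classifications. The oocyte comparisons are thus what selected it, so for these 10 genes they are given as a description: no p-value is printed, and the number past the threshold is stated beside that of all transcripts with nothing read from it. The CC values were not used in that choice and were tested.

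The V-ATPase uses the energy of ATP to move protons into lysosomes, endosomes and secretory vesicles, and so keeps them acidic. It is a rotary machine: the V1 sector in the cytoplasm splits ATP and turns a central stalk, which turns a ring of proteolipid subunits in the membrane-embedded V0 sector and carries protons across. Both ATP6V0D1, the d subunit that sits on the ring, and ATP6V1D, the D subunit of the central stalk, belong to the rotating part. The pump is also part of the machinery by which lysosomes signal amino acid supply.

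RNA was sequenced from pools of oocytes and of the CC that enclosed them, each library holding the material of 4 cumulus-oocyte complexes of suckled beef cows after calving. All cows had received gonadotropin releasing hormone (GnRH) on day -9 and prostaglandin F2 alpha on day -2. The small classification comprised follicles of up to 11.7 mm whose gonadotropin surge was induced by a second GnRH injection (GnRH2), and the large classification comprised follicles of 12.7 mm or more induced in the same way. The spontaneous classification comprised follicles of 11.7 to 14 mm in cows that showed estrus, had their own gonadotropin surge and received no GnRH2. Complexes were aspirated about 23 h after GnRH2 or estrus according to the treatment protocol, whereas the stage label gives about 20 h. There were 6 small, 6 large and 4 spontaneous oocyte pools, and 6 small, 6 large and 5 spontaneous CC pools. Follicle size and the kind of surge differ together between small and spontaneous follicles, and their parts cannot be told apart in that comparison. The same holds for large and spontaneous follicles, whose size limits overlap only in part.

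Values are CPM, the reads on a gene scaled to the same total of reads on genes in every pool. Sequencing gave 7664375 to 17934916 reads on genes per oocyte pool and 1911600 to 5772431 per CC pool, so that 3 reads, the limit for a count of 0, were worth at most 0.391 CPM in oocytes and 1.57 CPM in CC. These limits cover counting error only. The oocyte markers, such as GDF9 and BMP15, summed to 10638 to 15303 CPM in oocyte pools (10 of 10 listed) and to 0 to 6.76 CPM in CC pools (4 of 10 listed). The 11 cumulus and granulosa markers summed to 3500 to 8821 CPM in CC pools and to 151 to 646 CPM in oocyte pools, where HAS2 alone gave 132 to 248 CPM. Mitochondrially encoded genes took 0.846 to 5.0% of reads in oocyte pools and 12.6 to 44.0% in CC pools, and in each table small replicate 3 had the highest share and the fewest reads.

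All 10 genes passed the filter on low values in both tables (5 CPM or more in 4 or more oocyte or 5 or more CC pools), which left 10076 transcripts in oocytes and 9712 in CC. In CC each of the 10 reached 5 CPM in all 17 pools. ATP6V1D reached 5 CPM in only 6 of the 16 oocyte pools, of which 4 were large, so it passed mainly through the classification in which it was high.

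ATP6V0D1 (ENSBTAG00000014553) was the V0 subunit that differed most between oocyte classifications. In small oocyte pools it was at 3.89, 5.10, 9.22, 10.1, 15.9 and 19.5 CPM. In large oocyte pools the values were 14.2, 14.2, 15.0, 23.5, 30.2 and 35.3 CPM, and in spontaneous oocyte pools 32.9, 33.3, 47.8 and 52.6 CPM. Every spontaneous pool lay above every small pool, while the large pools overlapped with both. The means were 10.6 ± 6.10 (SD, n = 6), 22.1 ± 9.11 (SD, n = 6) and 41.6 ± 10.04 CPM (SD, n = 4). On the log2(CPM + 1) scale, which understates changes of low transcripts, the difference was 2.02 (SE 0.539) for spontaneous minus small, 1.08 (SE 0.481) for large minus small and 0.95 (SE 0.409) for spontaneous minus large. Leaving out each pool in turn moved the small to spontaneous difference between 1.81 and 2.22.

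ATP6V1D (ENSBTAG00000016309) followed another order, with its highest values in large follicles. Small oocyte pools held 0, 0.517, 1.48, 1.54, 1.63 and 8.35 CPM, the highest being replicate 3. The pool without any ATP6V1D read is bounded by 0.245 CPM. Large oocyte pools held 3.81, 4.85, 8.07, 13.9, 22.1 and 26.0 CPM, and spontaneous oocyte pools 0.675, 1.26, 1.29 and 11.9 CPM. Each large pool was above 5 of the 6 small pools and 3 of the 4 spontaneous pools, and the remaining small and spontaneous pool lay within the large range. The means were 2.25 ± 3.06 (SD, n = 6) in small, 13.1 ± 9.24 (SD, n = 6) in large and 3.79 ± 5.44 CPM (SD, n = 4) in spontaneous oocyte pools, and the small and spontaneous means differed by less than either SD. The log2 difference was 2.22 (SE 0.656) from small to large, and 3.18 with a pseudocount of 0.1. From large to spontaneous it was -1.83 (SE 0.723), and -2.49 without spontaneous replicate 4. Between small and spontaneous pools it was 0.39 (SE 0.834), and -0.27 without that replicate. The reads behind ATP6V1D were few, with 0 to 64 in a small pool, 49 to 307 in a large pool and 10 to 214 in a spontaneous pool.

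ATP6V0D1 and ATP6V1D thus differed in order across the classifications. Across the 16 oocyte pools their log2 values had a Pearson r of 0.25 and a Spearman rho of 0.11, a description in which differences between classifications and between libraries are mixed.

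Because ATP6V1D was abundant in CC, the summed cumulus and granulosa markers of the oocyte pools are given beside both genes. HAS2, which is among these markers, had a higher median in oocyte pools (186 CPM) than in CC pools (50.5 CPM). The sums therefore do not measure cumulus cell material alone. Large replicate 6 had the highest marker sum (646 CPM) and the highest ATP6V1D (26.0 CPM), and small replicate 3, with 491 CPM of markers, had the highest ATP6V1D among small pools. Large replicate 1 had the lowest marker sum of all oocyte pools (151 CPM), with the inhibin subunit INHA at 2.45 CPM. It held 22.1 CPM of ATP6V1D. Spontaneous replicate 3, with 491 CPM of markers, held 1.29 CPM. The ATP6V1D difference from small to large lay between 1.96 and 2.60 with each pool left out in turn, those pools included. The 4 spontaneous pools, with the highest mean of ATP6V0D1, had marker sums from 239 to 491 CPM, within the range of 151 to 646 CPM of large pools and near that of small pools (210 to 491 CPM). The part of CC transcripts in either difference was not tested.

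**Figure D1:**
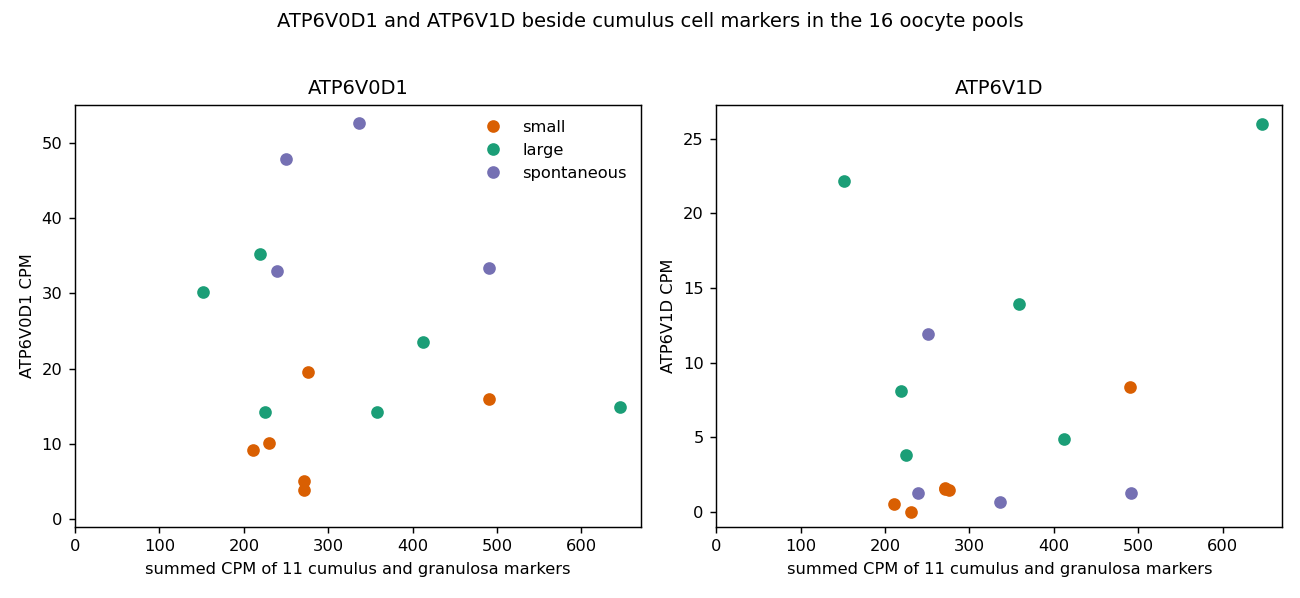
CPM of ATP6V0D1 (left) and ATP6V1D (right) against the summed CPM of 11 cumulus and granulosa markers in each of the 16 oocyte pools, coloured by follicle classification. Large pools with 22.1 and 26.0 CPM of ATP6V1D stand at the lowest (151 CPM) and the highest (646 CPM) marker sum. Each sum includes HAS2, whose median was higher in oocyte than in CC pools.

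The threshold used here was a nominal limma p of 0.01 or less that also held without small replicate 3 where small pools were compared. It differs from the threshold of the study, which asked for that nominal p in both edgeR and DESeq2. From small to large oocytes 1 of the 10 genes was past it (ATP6V1D), against 0.655% of all 10076 transcripts. With the quasi-likelihood test of edgeR on the recovered reads 0 were, and that test may not be the one the study ran. By its own threshold the study lists this transcript, written ATP6VID, as higher in large than in small oocytes. It also lists ATP6V0D1 between small and spontaneous oocytes. Between small and spontaneous oocytes 1 was past the limma threshold (ATP6V0D1), against 0.774% of all transcripts. From large to spontaneous oocytes it was 0 of 10 against 0.943%. Pool values without overlap were found for 0, 1 (ATP6V0D1) and 0 of the 10 genes in the same order of comparisons, and for 0.258%, 0.903% and 0.913% of all transcripts. ATP6V0D1 and ATP6V1D were selected on these differences, so neither count bears on whether the set stands apart.

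The other membrane subunits moved less. ATP6V0E1 (ENSBTAG00000015100), the small e subunit, had a mean of 45.8 ± 14.0 CPM (SD, n = 6) in small oocyte pools. The large mean was 68.5 ± 16.9 CPM (SD, n = 6) and the spontaneous mean 68.7 ± 13.0 CPM (SD, n = 4). Its small pools ran from 27.6 to 66.7 CPM, its large pools from 53.6 to 99.8 CPM and its spontaneous pools from 49.8 to 79.3 CPM, so all classifications overlapped. The log2 difference was 0.59 (SE 0.273) for large minus small and 0.61 (SE 0.333) for spontaneous minus small. ATP6V0C (ENSBTAG00000026428), which encodes the main proteolipid of the ring, had means of 305.3 ± 98.9, 316.0 ± 59.4 and 340.1 ± 43.4 CPM in the small, large and spontaneous classification. These means lay within 1 SD of each other. ATP6V0B (ENSBTAG00000018889), a second proteolipid, ranged from 0.389 to 41.4 CPM over the oocyte pools, with means of 11.8 ± 15.0, 11.4 ± 9.17 and 14.3 ± 8.35 CPM. Its lowest pool was a large one and its highest a small one, and no order of the classifications could be made out.

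Within the V1 sector, ATP6V1A (ENSBTAG00000002703), the catalytic subunit that splits ATP, was at 64.4 ± 28.8, 74.2 ± 23.4 and 68.5 ± 19.6 CPM in small, large and spontaneous oocyte pools. ATP6V1B2 (ENSBTAG00000018646), the nucleotide-binding partner of the catalytic subunit, ran in the opposite order to ATP6V0D1, with 203.8 ± 55.0, 165.4 ± 55.4 and 151.7 ± 13.3 CPM. Its small pools spanned 127.5 to 254.4 CPM and its spontaneous pools 135.1 to 165.6 CPM, so the ranges overlapped. ATP6V1E1 (ENSBTAG00000014238), of the peripheral stalk, was at 72.7 ± 14.8, 68.2 ± 21.0 and 77.6 ± 11.1 CPM. ATP6V1H (ENSBTAG00000003450), a regulatory subunit, was at 32.1 ± 18.1, 41.7 ± 15.4 and 33.5 ± 28.8 CPM, and its spread in spontaneous pools came mainly from replicate 3 at 76.2 CPM. In each of these genes the means differed by less than the largest SD.

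ATP6AP1 (ENSBTAG00000012117), an accessory protein of the assembled pump, was split within the spontaneous classification. Its spontaneous oocyte pools held 9.69, 14.7, 43.3 and 43.4 CPM, 2 of them above all other oocyte pools. Small oocyte pools ranged from 3.97 to 19.1 CPM and large ones from 10.3 to 19.6 CPM. The log2 difference from small to spontaneous was 0.998 (SE 0.593).

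By sector, all 4 V0 subunits had a log2 difference above 0 for large minus small (median 0.35) and for spontaneous minus small (median 0.61). For spontaneous minus large the median was 0.32, and ATP6V0E1 stood at 0.015 (SE 0.272), running from -0.061 to 0.159 with each pool left out, so its sign was not settled. Of the 5 V1 subunits 3 were above 0 for large minus small (median 0.27), 3 for spontaneous minus small (0.11) and 1 for spontaneous minus large (-0.10). Over all 10 genes the medians were 0.28, 0.30 and 0.07, beside 0.05, 0.05 and 0.01 over all transcripts. Of all transcripts, 55.5%, 55.0% and 50.9% were above 0 in the same order of comparisons. The comparisons share their pools. The V0 values include ATP6V0D1, the V1 values include ATP6V1D, and the medians over all 10 genes include both. The set was chosen for these genes, so nothing is read from the counts or medians.

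**Figure D2:**
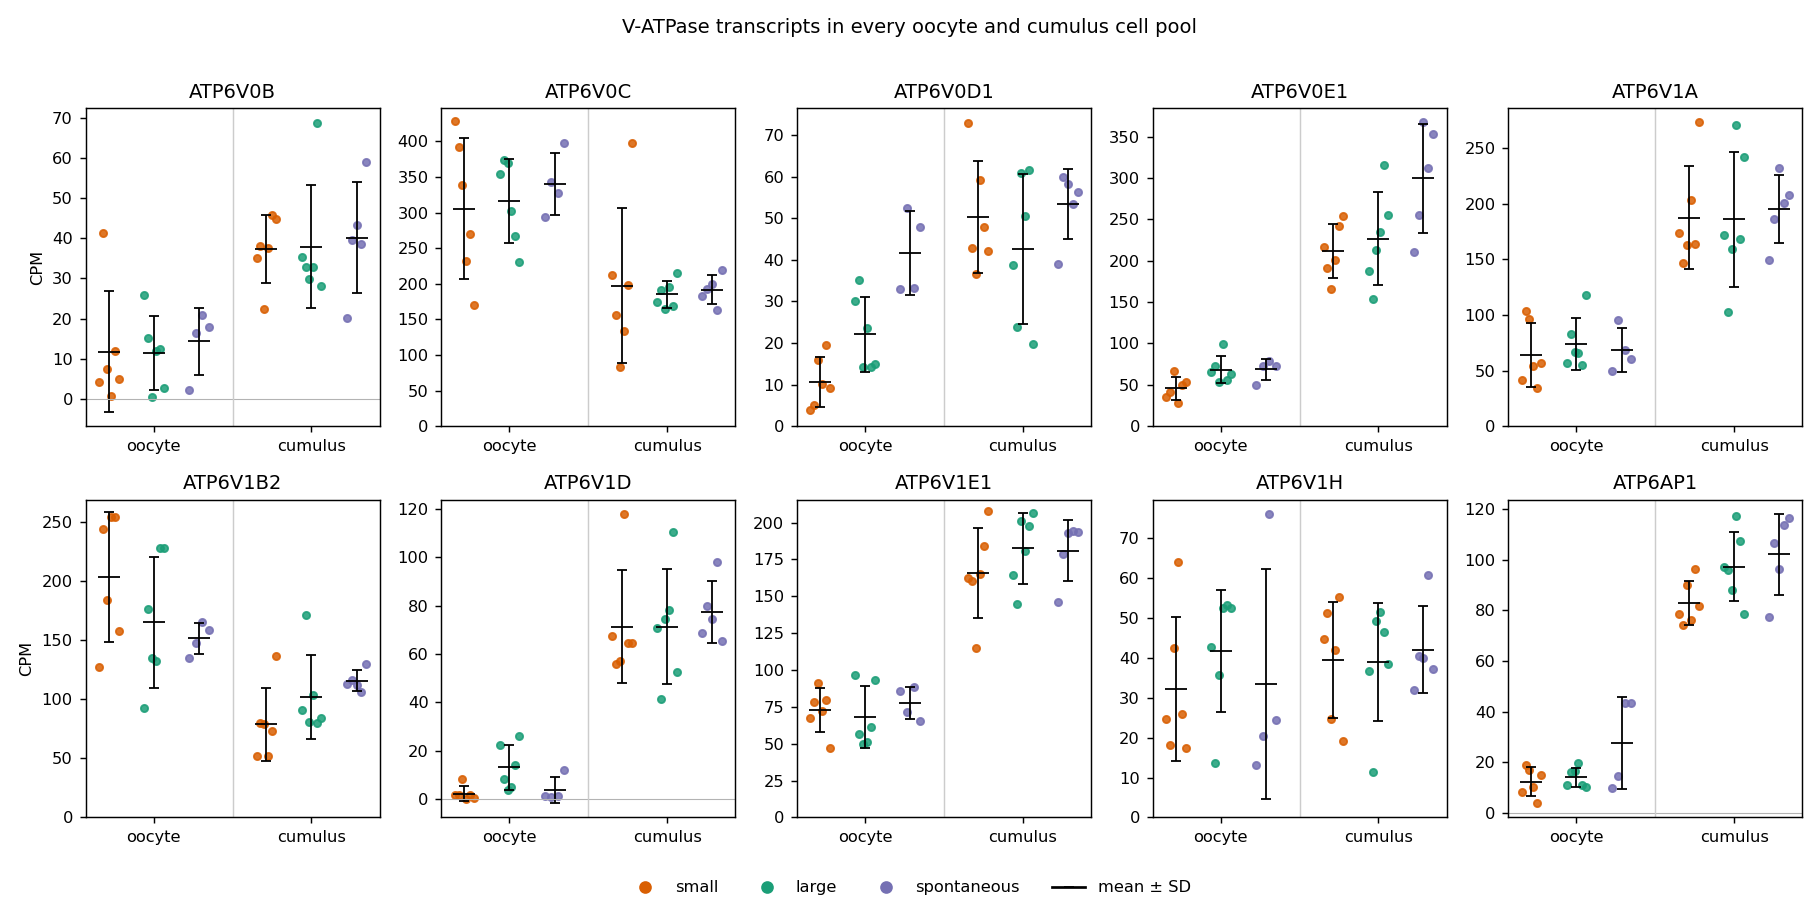
CPM of the 10 V-ATPase genes in every pool, with oocyte pools left and CC pools right of the grey line in each panel, coloured by follicle classification, and black bars for the mean ± SD (vertical scales differ between panels). In oocytes ATP6V0D1 is highest in spontaneous pools (32.9 to 52.6 CPM) and ATP6V1D in large pools (3.81 to 26.0 CPM), whereas the CC pools of each gene overlap between classifications.

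The genes also differed in how tightly they were held within an oocyte classification. The coefficient of variation, averaged over the 3 classifications, was 21.3% for ATP6V0C, 21.8% for ATP6V1E1, 23.1% for ATP6V1B2 and 24.7% for ATP6V0E1. It was 34.9% for ATP6V1A, 40.9% for ATP6V0D1, 46.5% for ATP6AP1 and 59.7% for ATP6V1H. ATP6V0B and ATP6V1D varied most, with 88.5% and 117%, and 95.9% of retained oocyte transcripts varied less than ATP6V1D. The median over the 10 genes was 37.9% in oocytes, beside 43.3% over all retained transcripts, and 26.3% in CC, beside 31.6%. In CC the values ran from 13.4% for ATP6AP1 and 14.4% for ATP6V1E1 to 33.6% for ATP6V1H, and those of ATP6V1D (27.6%) and ATP6V0B (32.5%) were inside the range of the other subunits. The lowest read counts in an oocyte pool among the 10 genes were 5 for ATP6V0B and 0 for ATP6V1D, and the part of low counts in their spread was not tested.

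After each classification's mean was removed, the 45 pairs of these genes had a median Pearson r of 0.16 over the 16 oocyte pools, with 34 pairs above 0, beside a median of 0.0041 over all pairs of retained transcripts. Over the 17 CC pools the median was 0.34, with 35 pairs above 0, beside 0.088. These values are descriptions over pools that share library and depth. The highest value among oocyte pairs was that of ATP6V0D1 with ATP6V0E1 (0.52). Among CC pairs the highest was ATP6V0E1 with ATP6V1E1 (0.83). The lowest CC values were those of ATP6V1B2 with ATP6V1H (-0.76), ATP6V1D (-0.60) and ATP6V0D1 (-0.50), whereas ATP6V1B2 with ATP6V0C had 0.43.

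The 3 transcripts outside the set with the pattern most like ATP6V0D1 over the 16 oocyte pools were TRIR (Pearson r 0.81, Spearman rho 0.79), MRPL10 (0.78 and 0.80) and C9H6ORF203 (0.77 and 0.80). Without the pools farthest from its median, small replicates 1 and 2, the values of r were 0.79, 0.64 and 0.83. For ATP6V1D they were EMC1 (0.81 and 0.83), TRMT2A (0.79 and 0.76) and ANKRD10 (0.79 and 0.73), and without large replicates 6 and 1 the values of r were 0.68, 0.74 and 0.66. They are the highest among all retained transcripts and were picked for being so.

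In CC the question was whether transcripts of the pump differed with follicle classification in the somatic cells around the oocyte. None of the 10 genes passed the nominal threshold of 0.01 in any of the 3 comparisons by limma, and edgeR and DESeq2 on the recovered reads also called 0. Of all 9712 transcripts, 0.813% passed from small to large CC, 2.38% from small to spontaneous CC and 1.66% from large to spontaneous CC. At an unadjusted limma p under 0.05 the counts were 0, 2 and 0 of the 10 genes, against 4.0%, 8.55% and 7.07% of all transcripts, and an adjusted limma p (Benjamini-Hochberg) under 0.05 was reached by 0 of the 10 genes in each, against 0%, 0.0309% and 0.0103%. The p-values measure only the spread between these pools. In each comparison 0 of the 10 genes had CC pools that separated without overlap, against 0.247%, 1.16% and 0.865% of all transcripts. Fewer cells of a type and less RNA per cell cannot be told apart in pooled samples.

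The 2 genes under 0.05 were ATP6V1B2 and ATP6V0E1, both with higher values in spontaneous than in small CC. ATP6V1B2 was at 51.6, 52.5, 73.6, 79.5, 80.0 and 136.5 CPM in small CC pools and at 106.0, 112.2, 113.5, 116.8 and 130.3 CPM in spontaneous CC pools. The spontaneous pools lay close together above 5 of the 6 small pools, and small replicate 6 lay above them all. The means were 79.0 ± 31.0 (SD, n = 6) and 115.8 ± 9.03 CPM (SD, n = 5), a log2 difference of 0.62 (SE 0.221, limma p = 0.0116, adjusted p = 0.430, exact permutation p = 0.0390, two-sided). Without small replicate 6 the log2 difference was 0.79 and passed the threshold. Large CC pools were at 101.9 ± 35.4 CPM (SD, n = 6).

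ATP6V0E1 was at 165.3, 190.8, 200.7, 216.8, 242.0 and 254.7 CPM in small CC pools and at 210.2, 255.5, 312.7, 353.0 and 367.4 CPM in spontaneous CC pools. The lowest spontaneous pool, replicate 1, lay among the small pools and the other 4 lay above all of them. The means were 211.7 ± 33.2 (SD, n = 6) and 299.8 ± 66.2 CPM (SD, n = 5), a log2 difference of 0.48 (SE 0.181, limma p = 0.0158, adjusted p = 0.463, exact permutation p = 0.0195, two-sided). Without spontaneous replicate 1 it was 0.60 and passed the threshold, as it did without small replicate 6 (0.54). Without spontaneous replicate 3 it was 0.40 and no longer under an unadjusted limma p of 0.05.

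A shift of the whole CPM scale lay beside both differences. From small to spontaneous CC the median log2 difference over all 9712 transcripts was 0.16, while the median share of mitochondrially encoded reads was 23.5% in small and 15.6% in spontaneous CC pools. The summed cumulus and granulosa markers had medians of 4707 and 5919 CPM in the same pools, and their part in the differences was not tested. On the same scale all 10 genes were above 0, with a median of 0.15. With median-of-ratios size factors, which brought the median of all transcripts to 0.01, 4 of the 10 genes were above 0 and their median was -0.01. Under that scaling ATP6V1B2 differed by 0.47 and ATP6V0E1 by 0.33, and neither was under an unadjusted limma p of 0.05. From large to spontaneous CC 9 of the 10 genes were above 0 with a median of 0.15, beside 0.11 over all transcripts, and with size factors 6 were above 0 with a median of 0.04. From small to large CC 5 were above 0 with a median of 0.03, beside 0.05.

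The genes that had differed in oocytes showed no such order in CC. ATP6V0D1 had means of 50.3 ± 13.5 (SD, n = 6), 42.6 ± 18.1 (SD, n = 6) and 53.4 ± 8.35 CPM (SD, n = 5) in small, large and spontaneous CC pools. The log2 difference from small to spontaneous CC was 0.11, with a 95% interval of -0.33 to 0.55 (limma p = 0.609, adjusted p = 0.913, exact permutation p = 0.662), beside 2.02 in oocytes, and it turned to -0.04 with size factors. From small to large CC it was -0.32 (-0.91 to 0.28, limma p = 0.277, adjusted p = 0.999, exact permutation p = 0.420). ATP6V1D was at 71.2 ± 23.3, 71.2 ± 23.7 and 77.3 ± 12.9 CPM in small, large and spontaneous CC pools. Its log2 difference from small to large CC was -0.02, with a 95% interval of -0.52 to 0.49 (limma p = 0.949, adjusted p = 0.999, exact permutation p = 1), beside 2.22 in oocytes. Whether the oocyte and CC differences differ from each other was not tested, since the tables were scaled separately and the oocyte difference chose the gene.

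ATP6AP1 had CC means of 82.8 ± 8.61 (SD, n = 6), 97.2 ± 13.7 (SD, n = 6) and 102.1 ± 15.9 CPM (SD, n = 5) in the same order of classifications, with overlapping ranges of 74.2 to 96.3, 78.4 to 117.1 and 77.3 to 116.4 CPM. The limma p for small against spontaneous was 0.0989 (adjusted p = 0.678) and the exact permutation p 0.0368. Apart from ATP6AP1 (0.0628), exact permutation p-values from small to large CC were 0.279 or more. From small to spontaneous CC the 7 genes other than ATP6V1B2, ATP6V0E1 and ATP6AP1 had 0.387 or more. ATP6V0C held 82.7 to 397.6 CPM in small CC pools, both ends of its CC range, and 163.3 to 218.7 CPM in spontaneous ones. Red blood cell markers stayed at or below 4.63 CPM in CC pools. The summed theca markers, all 5 listed, ran from 234 to 1302 CPM in CC pools. Their medians were 510, 717 and 699 CPM in small, large and spontaneous CC pools. Among them INSL3 and COL1A1 had medians of 360 and 235 CPM, while CYP17A1 stayed at or below 0.781 CPM. The part of theca transcripts in the CC differences was not tested. The summed white blood cell markers, all 10 listed, had medians of 104.7, 67.9 and 113.3 CPM in small, large and spontaneous CC pools, and without the pools with the highest sums (large replicate 6, 232.1 CPM, and spontaneous replicate 2, 265.3 CPM) again 0 of the 10 genes passed in any CC comparison.

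**Figure D3:**
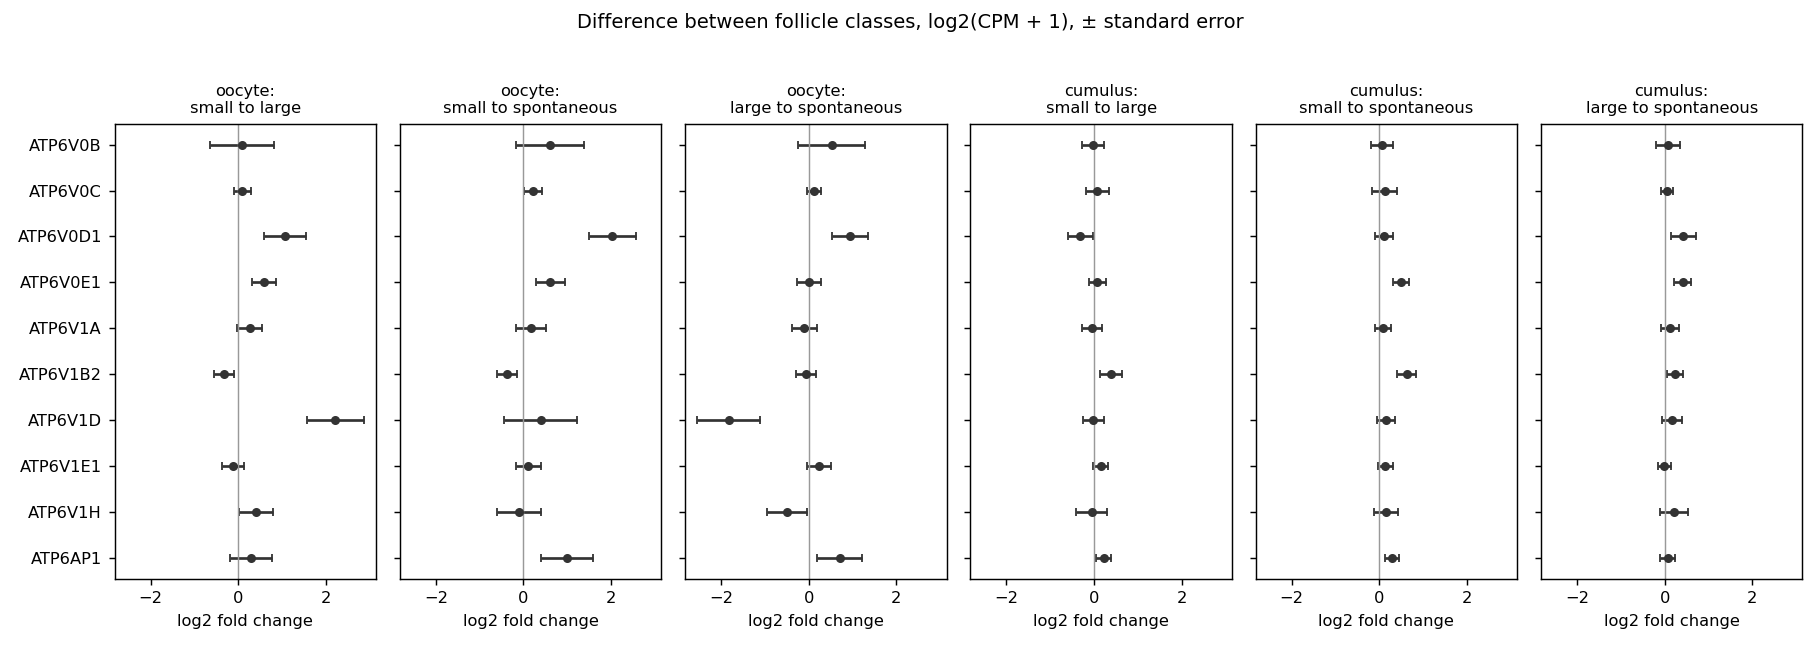
Log2 difference on the log2(CPM + 1) scale, second classification minus first, with bars of ± 1 SE, for the 10 V-ATPase genes in the 3 oocyte and 3 CC comparisons. ATP6V0D1 stands at 2.02 from small to spontaneous oocytes and ATP6V1D at 2.22 from small to large oocytes, while in CC the values lie between -0.32 and 0.62.

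Set side by side, oocytes and CC carried the subunits in different proportions. The tables were scaled separately, so the levels are given without a test. Median CPM was higher in CC for 8 of the 10 genes, as it was for 47.3% of the 8083 transcripts retained in both tables. The median log2 ratio of CC to oocyte was 1.45 over the 10 genes and -0.15 over those transcripts. For ATP6V1D the median was 2.72 CPM in oocytes and 68.7 CPM in CC, a ratio of 25.3, and all 17 CC pools (41.3 to 117.8 CPM) lay above all 16 oocyte pools. A ratio of at least 10 occurred in 7.77% of transcripts.

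The other genes with separate ranges were ATP6AP1 (medians 14.9 and 95.7 CPM, ratio 6.43), ATP6V0E1 (59.5 and 235 CPM, ratio 3.95) and ATP6V1E1 (71.8 and 181 CPM, ratio 2.52). The 4 genes with all CC pools above all oocyte pools compare with 12.7% of transcripts, and 0 of the 10 had all oocyte pools above, compared with 22.5%. For ATP6V0B, ATP6V0D1, ATP6V1A and ATP6V1H the CC median was 3.15, 2.85, 2.751 and 1.32 times that of oocytes, with overlapping ranges. For ATP6V0D1 the overlap was with the spontaneous and large oocyte pools: all 6 small oocyte pools (up to 19.5 CPM) were below the lowest CC pool (19.9 CPM). The opposite order held for ATP6V0C, with medians of 333.3 CPM in oocytes and 190.8 CPM in CC, and for ATP6V1B2, with 162.0 and 91.1 CPM, where the oocyte median was 1.75 and 1.78 times that of CC. Again 8 genes were higher in CC with means in place of medians, with CPM recomputed without mitochondrially encoded genes, and without oocyte small replicate 3, oocyte large replicate 6 and CC small replicate 3.

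The remaining genes of the complex were taken from a list of 15 other subunits and accessory proteins, of which 13 were listed in oocytes and 11 in CC. Those retained in both tables were 6, and 4 of these had the higher median in oocytes. ATP6V0A1 and ATP6V0A2, isoforms of the a subunit through which protons pass, had medians of 267.4 and 64.5 CPM in oocytes and 141.6 and 34.9 CPM in CC. ATP6V1C1, a stator subunit, was at 164.0 and 122.2 CPM, and TCIRG1, the a isoform of osteoclasts, at 6.63 and 4.72 CPM. ATP6V1G1, of the peripheral stalk, and ATP6AP2, the prorenin receptor, were higher in CC, with 15.9 against 101.4 CPM and 41.7 against 76.2 CPM. The ranges of all 6 overlapped between oocytes and CC.

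Other isoforms of the list were below the filter in CC, and some in oocytes. ATP6V0D2, the alternative d subunit, was at 0 in 15 of 16 oocyte pools (at most 3.73 CPM) and in 13 of 17 CC pools (at most 2.93 CPM). ATP6V1B1, the alternative B subunit, had medians of 2.68 CPM in oocytes, with a highest value of 33.1 CPM, and 0 CPM in CC. Its oocyte means were 2.14 ± 2.74 CPM (SD, n = 6) in small and 13.3 ± 13.6 CPM (SD, n = 4) in spontaneous pools, which did not pass the threshold (limma p = 0.0152, adjusted p = 0.987, exact permutation p = 0.0190). ATP6V1C2, an alternative C subunit, had medians of 11.4 CPM in oocytes (0.279 to 48.2 CPM) and 2.15 CPM in CC. ATP6V0A4 had medians of 3.17 and 0.764 CPM. ATP6V1F, the F subunit of the rotor beside ATP6V1D, was listed only in the oocyte table, at 0.245 to 47.8 CPM with a median of 17.7 CPM, and was not analysed here in CC.

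Of the assembly factors retained in both tables (5 of 7), VMA21, which helps build V0 in the endoplasmic reticulum, differed most between the cell types. Its 16 oocyte pools held 0.947 to 30.4 CPM and its 17 CC pools 97.2 to 321.5 CPM, with medians of 13.6 and 160.3 CPM, a ratio of 11.8. TMEM199, another factor of V0 assembly, did not pass the oocyte filter, with 0 to 1.94 CPM in oocytes and 5.40 to 34.1 CPM in CC. WDR7 was also higher in all CC pools (medians 15.2 and 53.9 CPM). DMXL1, a rabconnectin of the group that joins V1 to V0, was higher in all oocyte pools (339.6 and 135.3 CPM). DMXL2 and ROGDI had overlapping ranges.

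**Figure D4:**
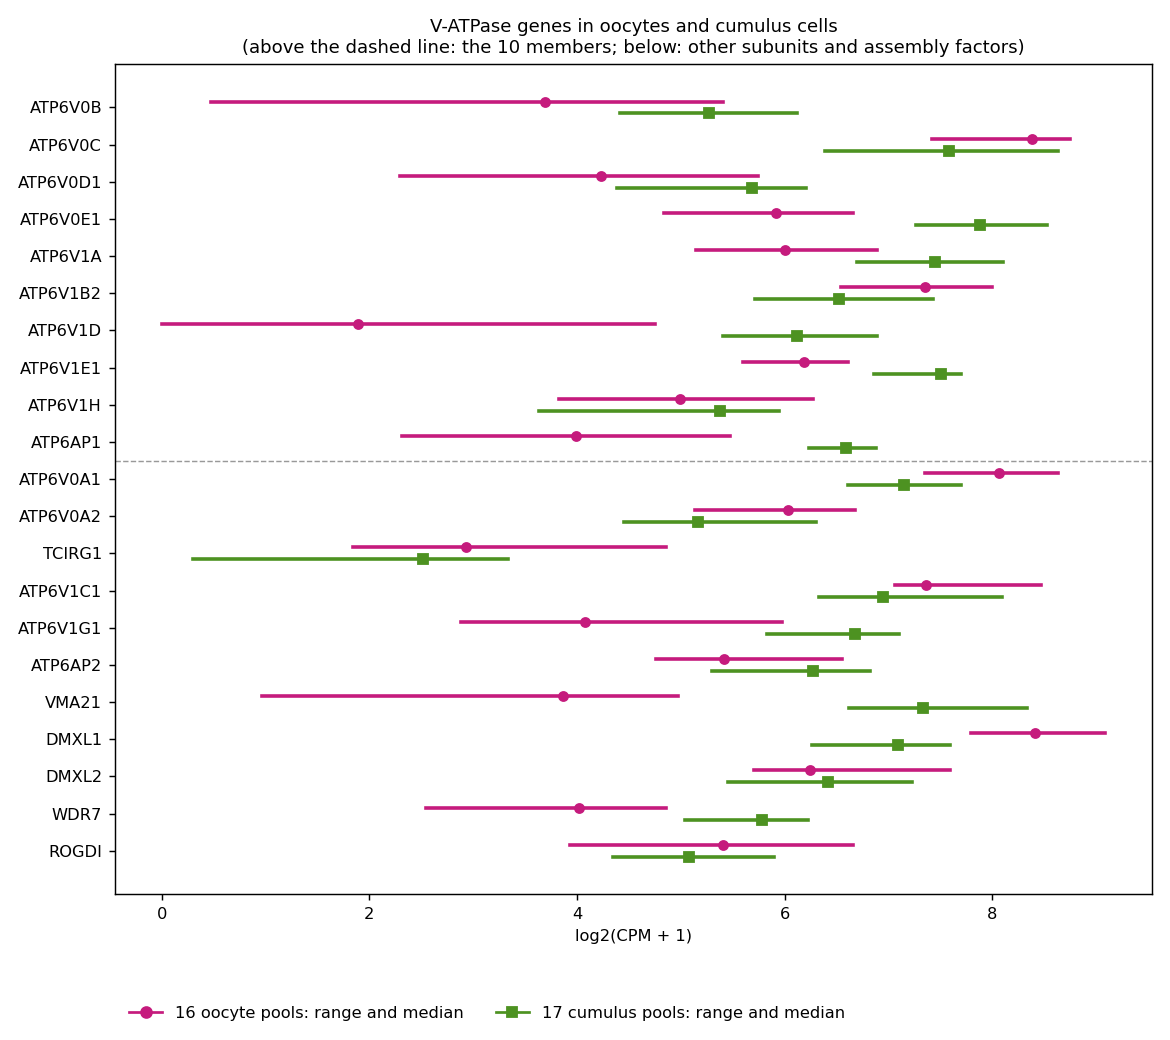
Range (line) and median (symbol) of log2(CPM + 1) over 16 oocyte pools and 17 CC pools for the 10 V-ATPase genes (above the dashed line) and for the other subunits, accessory proteins and assembly factors retained in both tables (below). The widest gap between medians among the 10 genes is that of ATP6V1D (2.72 CPM in oocytes and 68.7 CPM in CC), and ATP6V0C, ATP6V1B2, ATP6V0A1, ATP6V0A2 and DMXL1 are among those with the higher median in oocytes.

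In oocytes none of the other genes of the complex passed the threshold. Over the 5 lists together (other subunits, assembly factors, regulators of lysosomal genes, lysosomal membrane proteins, and the Ragulator and Rag GTPases through which lysosomes signal to mTORC1), 33 of 43 genes were retained. By limma 0 of these passed from small to large and 0 from small to spontaneous oocytes (0.655% and 0.774% of all transcripts), and edgeR and DESeq2 called 0 in both. At an unadjusted limma p under 0.05 there were 2, 4 and 3 of 33 in the 3 oocyte comparisons, against 4.11%, 4.51% and 4.87% of all transcripts. From large to spontaneous oocytes 1 of 33 passed, against 0.943% of all transcripts. This was LAMP1, the abundant glycoprotein of the lysosomal membrane. LAMP1 rose from 74.7 ± 36.6 CPM (SD, n = 6) to 142.2 ± 15.9 CPM (SD, n = 4), a log2 difference of 1.06 (SE 0.297, limma p = 0.00144, adjusted p = 0.853, exact permutation p = 0.0143, two-sided). Small oocyte pools were at 119.4 ± 21.5 CPM (SD, n = 6). The list of 10 retained other subunits had median log2 differences of -0.20, 0.07 and 0.34 in the 3 oocyte comparisons. Of its genes 4, 7 and 8 were above 0, against 55.5%, 55.0% and 50.9% of all transcripts.

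In CC 30 of the 43 genes were retained. From small to large CC 0 passed by limma, with 0 at an unadjusted p under 0.05, and edgeR and DESeq2 also called 0. From small to spontaneous CC 3 of 30 rose and 0 fell, against 2.38% of all transcripts past the threshold, on a scale on which 71.9% of all transcripts were higher in spontaneous CC. At an unadjusted limma p under 0.05 there were 7 of 30, against 8.55%. ATP6V1C1 rose from 103.4 ± 26.4 CPM (SD, n = 6) to 180.3 ± 52.1 CPM (SD, n = 5), a log2 difference of 0.79 (SE 0.207, limma p = 0.00129, adjusted p = 0.295, exact permutation p = 0.00649). LAMP2, a second lysosomal glycoprotein, rose from 244.0 ± 43.0 to 350.7 ± 25.7 CPM (0.54, limma p = 0.00367, adjusted p = 0.363, exact permutation p = 0.00433), and NPC1, which exports cholesterol from lysosomes, from 35.9 ± 5.02 to 55.4 ± 12.6 CPM (0.60, limma p = 0.0071, adjusted p = 0.405, exact permutation p = 0.00433). With size factors, with CPM free of mitochondrially encoded genes, and with edgeR and DESeq2, none of the 3 passed. Without each pool in turn ATP6V1C1 passed in 11 of 11 fits, LAMP2 in 10 (lost without spontaneous replicate 3) and NPC1 in 4.

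From large to spontaneous CC 2 of 30 rose, against 1.66% of all transcripts, with 65.6% of all transcripts higher in spontaneous CC. ATP6AP2 rose from 62.3 ± 15.9 CPM (SD, n = 6) to 94.99 ± 12.5 CPM (SD, n = 5), a log2 difference of 0.63 (SE 0.197, limma p = 0.00498, adjusted p = 0.567, exact permutation p = 0.00866). ATP6V1C1 rose from 118.2 ± 37.6 to 180.3 ± 52.1 CPM (0.61, limma p = 0.00945, adjusted p = 0.567, exact permutation p = 0.0303). ATP6V1C1 passed in 2 of 11 fits that left out a pool (without large replicate 2 and without spontaneous replicate 2). ATP6AP2 passed in 6 of 11 and was lost without large replicate 3 or 6 or spontaneous replicate 2, 3 or 4. With size factors neither passed, and edgeR and DESeq2 called ATP6AP2. The 2 comparisons share the spontaneous pools. All 6 retained other subunits were above 0 from large to spontaneous CC (median 0.37, beside 0.11 over all transcripts) and 5 of 6 from small to spontaneous CC (median 0.25, beside 0.16).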

How the data were processed

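The deposited values are CPM. The authors trimmed reads with fqtrim, aligned them with Hisat2 to the UMD3.1 build, used FeatureCounts with the Ensembl annotation for counting and divided by each pool's reads on genes. The oocyte and CC tables were scaled separately, and 0 columns stayed unmatched to a pool. Whole reads were recovered for 100% of values (within 0.01 of a read).

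Classifications came from the sample labels. Transcripts kept (5 CPM or more in 4 or more oocyte or 5 or more CC pools) were compared between pairs of classifications by limma (trend) on log2(CPM + 1), two-sided, at a nominal p of 0.01 (the study asked for it in both edgeR and DESeq2), with Benjamini-Hochberg adjusted p over all transcripts. Where small oocyte pools took part, the threshold was also required without small replicate 3. An exact two-sided permutation test of mean CPM stood beside limma for CC and for listed genes. In the order small to large, small to spontaneous and large to spontaneous, limma called 66, 78 and 95 oocyte transcripts, edgeR on the recovered reads 53, 56 and 91, and DESeq2 113, 121 and 181. In CC the counts were 79, 231 and 161 by limma, 63, 128 and 127 by edgeR, and 112, 217 and 199 by DESeq2.

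The 10 genes and the gene lists were chosen with earlier results of these data known. The text names all 10, list genes past the threshold, other subunits retained in both tables and the 3 transcripts most like ATP6V0D1 and ATP6V1D. Low isoforms, assembly factors and lysosomal genes below the threshold were added after their values were seen. Equal replicate numbers were not treated as pairs, since the labels give no such pairing. No library was a copy of another of its own cell type and classification. Copies across classifications were not looked for. The tests were tried on simulated data first. Sequences and coordinates were not used here. How reads of closely similar gene copies were counted is not given in the sources used here. Tools were R 4.3.3, limma 3.58.1, edgeR 4.0.16, DESeq2 1.42.0, Python 3.11.15, pandas 2.3.3, numpy 2.4.6, scipy 1.17.1 and matplotlib 3.10.9.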

Additional observations from a re-analysis of the deposited data

Results flagged for a closer look

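Of the 60 sets of 4 to 6 pools examined (10 genes, oocytes and CC, 3 classifications), 8 were flagged by Dixon's test. In these the gap of the highest or lowest pool to its neighbour was a large share of the whole range. Chance gives about 1 in 20 for normally distributed values, but the test was applied to untransformed CPM. The share over all transcripts was not computed, so nothing is read from the count. In oocytes the flagged values were ATP6V0B in small replicate 2 (41.4 CPM, the next pool 11.9 CPM), ATP6V1D in small replicate 3 (8.35 CPM, next 1.63 CPM) and ATP6V1D in spontaneous replicate 4 (11.9 CPM, next 1.29 CPM). In CC they were ATP6V0B in large replicate 5 (68.7 CPM, next 35.2 CPM), ATP6V1B2 in small replicate 6 (136.5 CPM, next 80.0 CPM), ATP6V1B2 in large replicate 2 (171.9 CPM, next 103 CPM) and ATP6V1D in small replicate 4 (117.8 CPM, next 67.5 CPM). ATP6V1H in CC large replicate 2 was the 1 low value (11.4 CPM, next 36.6 CPM).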

How the results depend on the processing

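The tally over other settings covered counts, medians and levels, and the log2 differences of ATP6V0D1, ATP6V1D, ATP6V0E1 and ATP6V1B2. In it 924 values were classed as the same, 28 as moved, 13 as turned in direction and 4 as newly past the threshold. Log2 differences of the other genes of the set were not in the tally. A turn of direction was marked for CC log2 differences only, so oocyte values that changed sign can lie in the other classes. In oocytes ATP6V1D from small to spontaneous went from 0.39 to -0.27 without spontaneous replicate 4. ATP6V0E1 from large to spontaneous oocytes ran from -0.061 to 0.159 with pools left out. With the quasi-likelihood test of edgeR 0 of the 10 genes passed from small to large oocytes in place of 1 (ATP6V1D). Leaving out each pool gave 0 to 1 from large to spontaneous oocytes (1, ATP6V1D, without spontaneous replicate 4) and 0 to 2 from small to spontaneous CC (2, ATP6V1B2 and ATP6V0E1, without small replicate 6; 1, ATP6V0E1, without spontaneous replicate 1). The CC log2 difference from small to large turned to -0.036 for ATP6V0E1 without mitochondrially encoded genes and ran from -0.026 to 0.18 with pools left out, and that of ATP6V1D ran from -0.15 to 0.14. From small to spontaneous CC, ATP6V0D1 turned to -0.043 with median-of-ratios size factors, -0.064 without mitochondrially encoded genes, -0.045 with edgeR and -0.048 with DESeq2, and ATP6V1D to -0.0012, -0.021, -0.015 and -0.019. In this comparison 10 of the 10 genes were above 0 on the CPM scale, 4 with size factors and 3 without mitochondrially encoded genes. Genes not named here thus turned as well. The cause was not tested. Correlations between pools of the same replicate number ran from -0.19 to 0.22. The labels give no pairing by number, and a weak pairing could be missed with so few pools. With the replicate number as a block 1 of the 10 genes, ATP6V1B2, passed from small to spontaneous CC, and LAMP1 no longer passed from large to spontaneous oocytes, LAMP2 and NPC1 from small to spontaneous CC, or ATP6V1C1 and ATP6AP2 from large to spontaneous CC.

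Counts over all transcripts that moved by over 1.5 times were, from small to large oocytes, 113 with DESeq2 (66 as reported). From small to spontaneous oocytes they were 42 with the replicate block, 121 with DESeq2, 130 without small replicate 3 and 49 without spontaneous replicate 3 (78). From large to spontaneous oocytes they were 181 with DESeq2 and 145 without spontaneous replicate 2 (95). In CC they were 137 with all classifications in one fit and 52 without small replicate 5 from small to large (79), and 88 without spontaneous replicate 4 and 99 without spontaneous replicate 5 from large to spontaneous (161). From small to spontaneous CC they were 127 with size factors, 120 without mitochondrially encoded genes, 128 with edgeR and 141 without spontaneous replicate 5 (231). The fits without CC large replicate 6 and spontaneous replicate 2, and the levels without the 3 pools named above, were chosen after seeing the data. The planned search of promoters for motifs was not run. ATP6V1D rests on few reads in oocytes, and 3 reads limit what can be seen at up to 1.57 CPM in CC.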

Other observations

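Levels of genes of the lysosomal membrane and its signalling are given as values only. Of those retained in both tables, 2 of 7 lysosomal membrane genes and 3 of 6 Ragulator and Rag GTPase genes had the higher median in CC. TFE3, a transcription factor of lysosomal genes, had a median of 306.7 CPM in oocyte pools and 43.9 CPM in CC pools, with all oocyte pools (221.4 CPM or more) above all CC pools (68.2 CPM or less), while its relative MITF had 2.58 and 8.57 CPM with overlapping ranges. The main glycoproteins of the lysosomal membrane ran in opposite directions: LAMP1 was higher in all CC pools, with medians of 119.6 CPM in oocytes and 325.4 CPM in CC, and LAMP2 in all oocyte pools, with 604.8 and 255.7 CPM. SLC38A9, a lysosomal arginine transporter and sensor, had medians of 41.8 and 14.7 CPM, and NPC1 of 103.7 and 37.1 CPM, both with overlapping ranges. Of the 6 Ragulator and Rag GTPase genes retained in both tables, 2 lay higher in all oocyte pools (RRAGC with medians of 250.9 and 51.2 CPM, and LAMTOR3) and 2 in all CC pools (LAMTOR1 and LAMTOR2).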
